A study of Homo sapiens with 23 samples.

Results

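The enzymes of ganglioside and globoside synthesis were followed through 7 genes, ST8SIA1, ST3GAL5, ST3GAL2, B4GALNT1, UGCG, B4GALT6 and A4GALT, of 12994 genes measured in human lung fibroblasts. The genes were chosen by name, and ST8SIA1 was selected on its pattern in these same arrays: higher with IL-13, lost after pretreatment with TNF and IL-17, and back with an antibody to IL-13Ra2. Its values in those contrasts are therefore a description and carry no test. All 7 genes had a probe, and all 7 passed the filter on low values, a detection p-value under 0.05 on at least 3 of the 23 arrays.

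Glycosphingolipids are membrane lipids in which a sugar chain is built on ceramide in the Golgi. UGCG, glucosylceramide synthase, adds the first sugar, and B4GALT6 is one of the enzymes that extend it to lactosylceramide. From lactosylceramide, ST3GAL5 makes the simplest ganglioside, ST8SIA1 adds a further sialic acid to give a disialoganglioside, B4GALNT1 starts the longer gangliosides, ST3GAL2 sialylates their outer galactose, and A4GALT turns the pathway towards globosides instead. IL-13 signals through IL-4Ra, IL-13Ra1 and STAT6, while IL-13Ra2 binds IL-13 tightly and is usually described as a decoy receptor.

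Expression was measured on single-colour Illumina beadchips in CCL-75, an established line of human lung fibroblasts, in 6 groups. Pre_Ab_IL13 (4 arrays) had TNF and IL-17 for 72 hours, the neutralising antibody to IL-13Ra2 during the last 1 hour, a wash, and then IL-13 for 20 hours. Pre_IL13 (4 arrays) had the same without antibody, and IL13 (4 arrays) had IL-13 without pretreatment. Pre_Ab_only (4 arrays) and Pre_only (3 arrays) had the pretreatment with and without antibody and no IL-13, and Control (4 arrays) had none of these. Cells of passages 8 and 6 were used, with experiments A and B in each, so arrays are written P8-A, P8-B, P6-A and P6-B. Pre_only holds P8-B, P6-A and P6-B. All arrays of a passage shared a beadchip, and the effect of passage cannot be told apart from that of the chip. The labels call A and B technical replicates while the design text calls them independent experiments, so p-values measure the spread between these arrays of 1 cell line, part of which may be technical.

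Each array detected between 17811 and 20162 probes. All 8 fibroblast markers were detected on every array, and none of the 2 epithelial markers with a probe (of 6 listed) was detected on 3 arrays or more. CD14, from a leukocyte list, and MYH11 and CNN1, from a smooth muscle list, were also detected on every array. CCL26, an eotaxin induced through STAT6, had a mean level of 11.1 in Pre_Ab_IL13, 8.86 in Pre_IL13 and 10.5 in IL13, against 6.33 in Pre_Ab_only, 6.26 in Pre_only and 5.51 in Control, where level means log2 normalised intensity here and throughout. IL13RA2, the gene of the decoy receptor, had a mean level of 11.4 in Pre_only and 7.56 in Control. SOCS1, a feedback inhibitor of cytokine signalling, had a mean level of 7.32 in IL13 and 6.17 in Control. It was also high after pretreatment without IL-13, at 7.40 in Pre_only and 7.42 in Pre_Ab_only. With IL-13 added it averaged 7.56 in Pre_IL13 and 8.22 in Pre_Ab_IL13.

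Promoter windows are shown for ST8SIA1 and for ST3GAL5 and A4GALT, the first enzymes of the 2 branches, both of which changed with pretreatment, to give the sequence around the start of each. Each window runs from 250 bases before to 50 bases after an annotated start (RefSeq, GRCh38.p14, sense strand), and capitals mark GC boxes, the motif GGGCGG on either strand. ST8SIA1 lies on the minus strand at chr12:22334658-22334957, ST3GAL5 on the minus strand at chr2:85888941-85889240 (1 of 5 windows for this gene) and A4GALT on the minus strand at chr22:42720821-42721120 (1 of 2 windows).
ST8SIA1: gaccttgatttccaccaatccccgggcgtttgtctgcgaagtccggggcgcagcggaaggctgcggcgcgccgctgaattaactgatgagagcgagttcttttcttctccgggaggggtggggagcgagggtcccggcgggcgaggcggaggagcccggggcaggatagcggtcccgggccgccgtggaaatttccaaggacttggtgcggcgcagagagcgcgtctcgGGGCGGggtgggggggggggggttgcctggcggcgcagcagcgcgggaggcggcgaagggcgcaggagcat
ST3GAL5: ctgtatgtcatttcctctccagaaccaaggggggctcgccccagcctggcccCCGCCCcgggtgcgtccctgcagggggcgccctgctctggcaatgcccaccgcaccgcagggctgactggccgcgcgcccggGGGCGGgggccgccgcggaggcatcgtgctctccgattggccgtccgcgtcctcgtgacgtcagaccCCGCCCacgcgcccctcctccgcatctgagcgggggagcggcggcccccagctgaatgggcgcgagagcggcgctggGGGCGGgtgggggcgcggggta
A4GALT: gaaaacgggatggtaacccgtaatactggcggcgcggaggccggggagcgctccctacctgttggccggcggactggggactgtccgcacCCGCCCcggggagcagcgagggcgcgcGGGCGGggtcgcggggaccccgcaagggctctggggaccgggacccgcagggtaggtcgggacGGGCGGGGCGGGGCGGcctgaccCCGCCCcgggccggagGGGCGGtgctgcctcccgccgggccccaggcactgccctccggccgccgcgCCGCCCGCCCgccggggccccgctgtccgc

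The ST8SIA1 window held 1 GC box, 21 bases before the start. The ST3GAL5 window held 4, and the A4GALT window held 9 matches, some of them overlapping. GC boxes were found in 7 of the 9 windows of the 4 members that had one (ST8SIA1, ST3GAL5, UGCG and A4GALT) and in 45.0% of all 35116 windows of this length. The STAT6 palindrome TTCNNNNGAA occurred in 6.44% of all windows, the general STAT palindrome TTCNNNGAA in 7.66% and the κB consensus in 11.3%, each searched on both strands. None of these last 3 motifs was found in the 9 windows of members, which says only that these letters are not in these windows. Windows of ST3GAL2, B4GALNT1 and B4GALT6 were not used here.

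ST8SIA1, the GD3 synthase, was high in Pre_Ab_IL13 and IL13, low in Pre_IL13 and near background in the groups without IL-13. Its brighter probe (ILMN_1664859) read 6.91, 7.17, 6.59 and 6.47 in Pre_Ab_IL13 for P8-A, P8-B, P6-A and P6-B. In Pre_IL13 it read 5.73, 5.04, 4.45 and 4.66, and in IL13 it read 6.75, 6.55, 6.06 and 6.37, in the same array order. The levels without IL-13 were 4.26, 4.56, 4.54 and 4.69 in Pre_Ab_only, 4.62, 4.65 and 4.32 in Pre_only (P8-B, P6-A, P6-B), and 4.66, 4.45, 4.29 and 4.28 in Control. All 8 arrays of Pre_Ab_IL13 and IL13 lay above all 15 others, and Pre_IL13 lay between, with its passage 6 arrays inside the range of the groups without IL-13.

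In order, the group means were 6.78 ± 0.32 in Pre_Ab_IL13, 6.43 ± 0.29 in IL13, 4.97 ± 0.56 in Pre_IL13, 4.53 ± 0.18 in Pre_only, 4.51 ± 0.18 in Pre_Ab_only and 4.42 ± 0.18 in Control (SD, n = 4, and n = 3 for Pre_only). The top pair overlapped in range, and so did Pre_IL13 with each of the groups below it. The probe was detected on all arrays of the top pair, on 3 of 4 in Pre_IL13, on 1 of 4 in Pre_Ab_only, on none of 3 in Pre_only and on 1 of 4 in Control. Levels this near background understate a fold change.

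**Figure D1:**
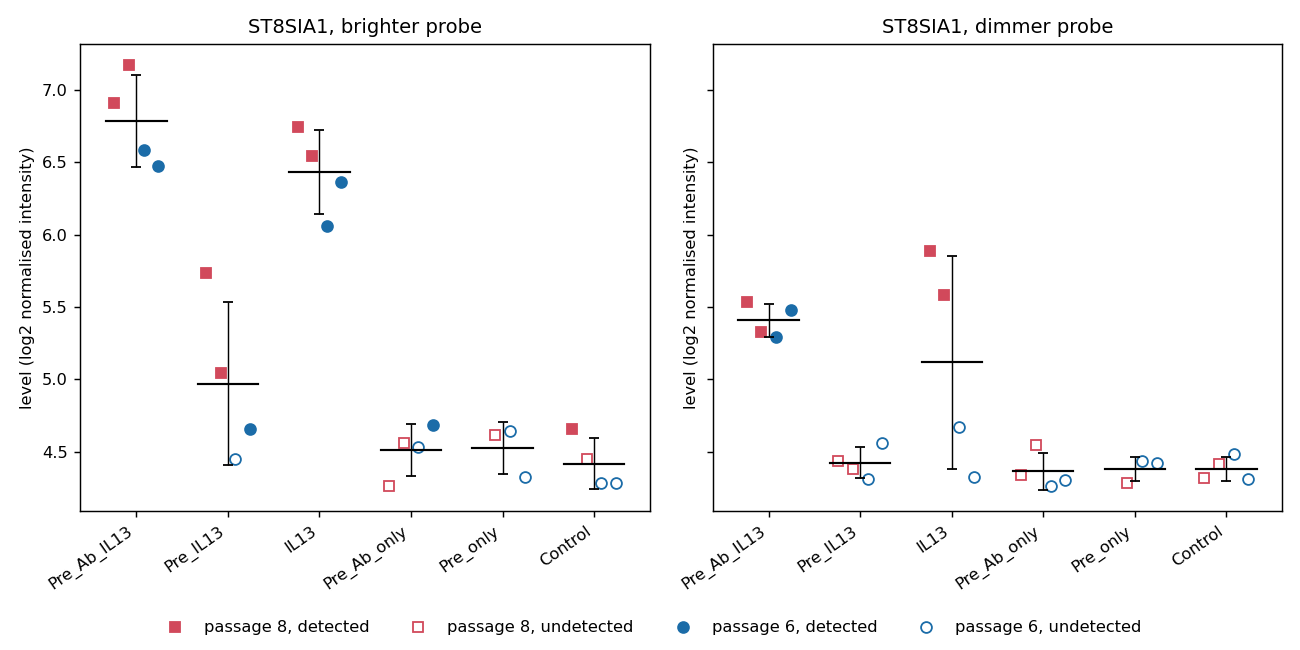
ST8SIA1 level (log2 normalised intensity, vertical axis) on each array by group, for the brighter probe on the left and the dimmer probe on the right. Squares are passage 8, circles passage 6, open symbols undetected arrays, and bars the mean and SD; the brighter probe averaged 6.78 in Pre_Ab_IL13 and 6.43 in IL13 and at most 4.97 in the other groups.

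As a description, ST8SIA1 was 2.01 log2 units higher in IL13 than in Control and 2.27 higher in Pre_Ab_IL13 than in Pre_Ab_only. Control and Pre_Ab_only were each detected on 1 of 4 arrays, so both differences were measured largely against background and no fold is given for them. Between Pre_IL13 and Pre_only the fitted difference was 0.38, measured against background, since Pre_only was undetected on every array, and no fold is given. It was 0.77 in passage 8 and 0.07 in passage 6, and 0.19 without the P8-A array of Pre_IL13. Pre_Ab_IL13 exceeded Pre_IL13 by 1.81, with 1.65 in passage 8 and 1.98 in passage 6. The change of Pre_IL13 against IL13 was -1.46, with -1.26 in passage 8 and -1.66 in passage 6.

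Set against each other, the IL-13 response after pretreatment minus that without it was -1.63 log2 units. With antibody it was 1.89 units larger than without antibody in pretreated cells, and 0.26 units larger than in cells that had not been pretreated. The last difference was 0.53 in passage 8 and -0.01 in passage 6. With the authors' deposited values, and likewise without background correction, the sizes were smaller: 0.76 in IL13 against Control, 0.92 in Pre_Ab_IL13 against Pre_Ab_only, 0.77 in Pre_Ab_IL13 against Pre_IL13 and -0.57 in Pre_IL13 against IL13. Markers of another cell type moved with IL-13 too: the mean level of the endothelial genes VWF and TEK ranged from 5.60 to 5.95 in IL13 and from 6.16 to 6.33 in Control, and from 5.70 to 5.96 in Pre_Ab_IL13 and from 5.98 to 6.57 in Pre_Ab_only. CD14, the 1 leukocyte marker tested, ranged from 7.15 to 7.59 in IL13 and from 7.80 to 7.98 in Control. The part of these markers in the levels of ST8SIA1 and the other members was not tested. In total RNA of a culture, fewer cells that express the gene and less RNA per cell cannot be told apart.

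The dimmer ST8SIA1 probe (ILMN_2048011) also stood highest in Pre_Ab_IL13 and IL13, but not in each passage. It read 5.53, 5.33, 5.29 and 5.48 in Pre_Ab_IL13 and was detected on all 4 arrays. In IL13 it read 5.89 and 5.58 in passage 8, and 4.67 and 4.33 in passage 6, where it was undetected. The P6-A array of IL13 also had the fewest detected probes of all arrays (17811), whose part in this was not tested. The probe was undetected on all 15 arrays of the other 4 groups, between 4.26 and 4.56. Control was undetected throughout and IL13 was detected in passage 8 only, so no fold is given over both passages. In passage 6, where neither group was detected, no difference can be given. The brighter probe differed by 2.09 in passage 8 and 1.93 in passage 6. The 2 probes thus disagreed about IL-13 alone in passage 6 and both showed the antibody group high in both passages.

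Without IL-13, ST8SIA1 lay at or near background in every group, and a change there could not have been seen unless it was a rise. The fitted difference was -0.08 in Pre_Ab_only against Pre_only and 0.17 in Pre_only against Control. Passage differences were larger in the groups given IL-13, the groups on which the gene was selected. Passage 8 averaged 7.04 and passage 6 6.53 in Pre_Ab_IL13, 5.39 and 4.55 in Pre_IL13, and 6.65 and 6.21 in IL13. In Control passage 8 averaged 4.55 and passage 6 4.28, and in Pre_only 4.62 (P8-B only) and 4.48, the same order. In Pre_Ab_only passage 8 averaged 4.41 and passage 6 4.61, the opposite order. Bead counts behind the brighter probe were 11 to 31 per array, and the error of the bead mean was 1.83% to 7.17% of the intensity.

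The genes nearest to ST8SIA1 in pattern, by Pearson correlation of levels over the 23 arrays after each passage mean was subtracted, were ANPEP (r = 0.941), CCL26 (0.932), BATF3 (0.924), LIMA1 (0.923) and CFAP300 (0.920), out of 12993 genes. ANPEP is an ectopeptidase of the cell surface, BATF3 a leucine zipper transcription factor and LIMA1 an actin-binding protein. These arrays share their treatments, so the correlations describe the groups. ANPEP averaged 9.58 in Pre_Ab_IL13, 8.70 in Pre_IL13 and 9.58 in IL13, against 7.58 in Pre_Ab_only, 7.71 in Pre_only and 7.69 in Control. BATF3 averaged 7.26, 5.94 and 6.84 in the 3 groups given IL-13, in the same order, against 5.10, 5.18 and 5.14 in the others. The 5 genes were picked as the highest, so the other members could only be lower. Their correlations with ST8SIA1 were 0.36 for B4GALT6 (rank 1011), 0.26 for ST3GAL2 (rank 2066) and 0.23 for ST3GAL5 (rank 2319). They were 0.08 for UGCG (rank 4909), 0.07 for A4GALT (rank 5113) and -0.35 for B4GALNT1 (rank 11966).

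**Figure D2:**
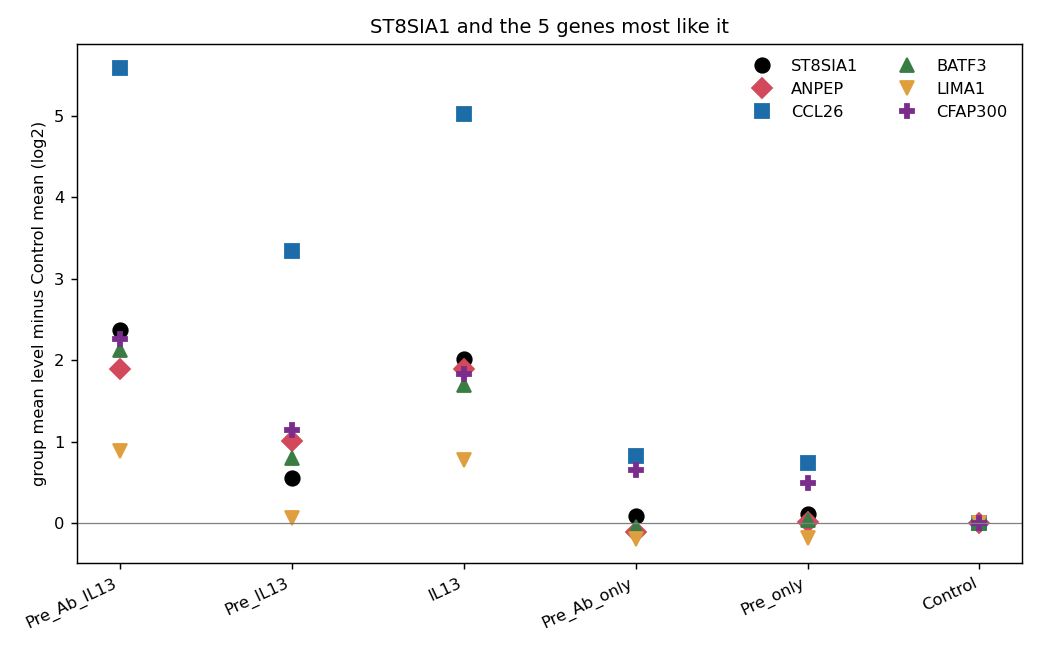
Group mean level minus the Control mean (log2, vertical axis) of ST8SIA1 and the 5 genes with the highest correlation to it, in the 6 groups. All 6 genes stood higher in Pre_Ab_IL13 and IL13 than in Pre_IL13, and CCL26 reached 11.1 in Pre_Ab_IL13 against 5.51 in Control.

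IL-13 alone changed none of the other 6 members at an adjusted p under 0.05 (limma), while 243 of all 12994 genes passed (1.87%). At an unadjusted p under 0.05 (limma) stood 3 of the 6, beside 1528 of all 12994 genes. They were ST3GAL5 by 0.33 (95% interval 0.11 to 0.55, limma adjusted p = 0.127), UGCG by -0.26 (-0.49 to -0.04, limma adjusted p = 0.317) and B4GALNT1 by -0.24 (-0.44 to -0.03, limma adjusted p = 0.318). The ST3GAL5 difference lay in passage 6, at 0.57, and was 0.09 in passage 8. The log2 changes of the remaining members were 0.11 for A4GALT, 0.05 for ST3GAL2 and 0.19 for B4GALT6, with 95% intervals between -0.21 and 0.42. Among the 54 other genes tested from lists of the pathway (88 genes listed with the members, 71 with a probe, 61 tested), none passed, and 6 had an unadjusted p under 0.05.

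With TNF and IL-17 pretreatment, in Pre_only against Control, ST3GAL5 rose, A4GALT fell, and 20 of the 54 other pathway genes passed, 14 upwards and 6 downwards. The background was high, with 3223 of 12994 genes passing (24.8%), beside 36.1% of the 61 pathway genes tested. With median scaling the shares were 15.0% of all genes and 14.8% of pathway genes, so nothing particular to the pathway can be read from its count. The median log2 change was 0.06 over the pathway and -0.01 over all genes.

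ST3GAL5, the GM3 synthase at the head of the ganglioside branch, read 7.55, 8.19 and 8.0 in Pre_only (P8-B, P6-A, P6-B). It read 7.25, 7.24, 7.51 and 7.50 in Control (P8-A, P8-B, P6-A, P6-B). The groups did not overlap, although passage 8 in Pre_only was only just above passage 6 in Control. The rise was 0.47 ± 0.12 on the log2 scale (SE, limma adjusted p = 0.00282), 0.31 in passage 8 and 0.60 in passage 6. Its second probe rose by 0.44.

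A4GALT, the Gb3 synthase that opens the globoside branch, read 6.90, 6.70 and 6.71 in Pre_only. It read 7.24, 7.15, 7.53 and 7.54 in Control, and the groups did not overlap. The change was -0.59 ± 0.15 (SE, limma adjusted p = 0.00331), -0.29 in passage 8 and -0.83 in passage 6. Both branch enzymes therefore changed less in passage 8 than in passage 6, but that difference did not pass its own test for A4GALT (limma adjusted p = 0.404) or ST3GAL5 (limma adjusted p = 0.773).

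A4GALT was also lower when pretreated and unpretreated cells both had IL-13, a comparison that shares no array with the one above. It read 7.04, 6.97, 6.73 and 6.65 in Pre_IL13, against 7.16, 7.30, 7.79 and 7.65 in IL13, with no overlap. The change was -0.63 ± 0.14 (SE, limma adjusted p = 0.000752), -0.22 in passage 8 and -1.03 in passage 6. ST3GAL2, which sialylates the outer galactose of longer gangliosides, read 6.33, 6.04, 6.45 and 6.25 in Pre_IL13. It read 6.65, 6.64, 6.75 and 6.59 in IL13, again with no overlap. Its change was -0.39 ± 0.13 (SE, limma adjusted p = 0.0197), and without the P8-B array of Pre_IL13 it was -0.32 and no longer passed (limma adjusted p = 0.0872). Over all genes 3604 passed in this comparison (27.7%), against 2 of the 6 members tested. ST3GAL2 in Pre_only against Control had a change of -0.26 (95% interval -0.54 to 0.02, limma adjusted p = 0.18), with no overlap of the groups. ST3GAL5 did not pass in Pre_IL13 against IL13, with a change of 0.12 (95% interval -0.10 to 0.34, limma adjusted p = 0.458).

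These member calls depended on how arrays were scaled. When each array was scaled to a common median in place of quantiles, A4GALT in Pre_only against Control kept its call at -0.65. ST3GAL5 in that comparison (0.37, limma adjusted p = 0.194), A4GALT in Pre_IL13 against IL13 (-0.35, limma adjusted p = 0.166) and ST3GAL2 there (-0.12, limma adjusted p = 0.653) lost theirs. That scaling moved the median of all genes to -0.06 and 0.15 in these comparisons, and relative to it the changes were -0.60 for A4GALT and 0.43 for ST3GAL5 in Pre_only, and -0.50 for A4GALT and -0.27 for ST3GAL2 in Pre_IL13.

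**Figure D3:**
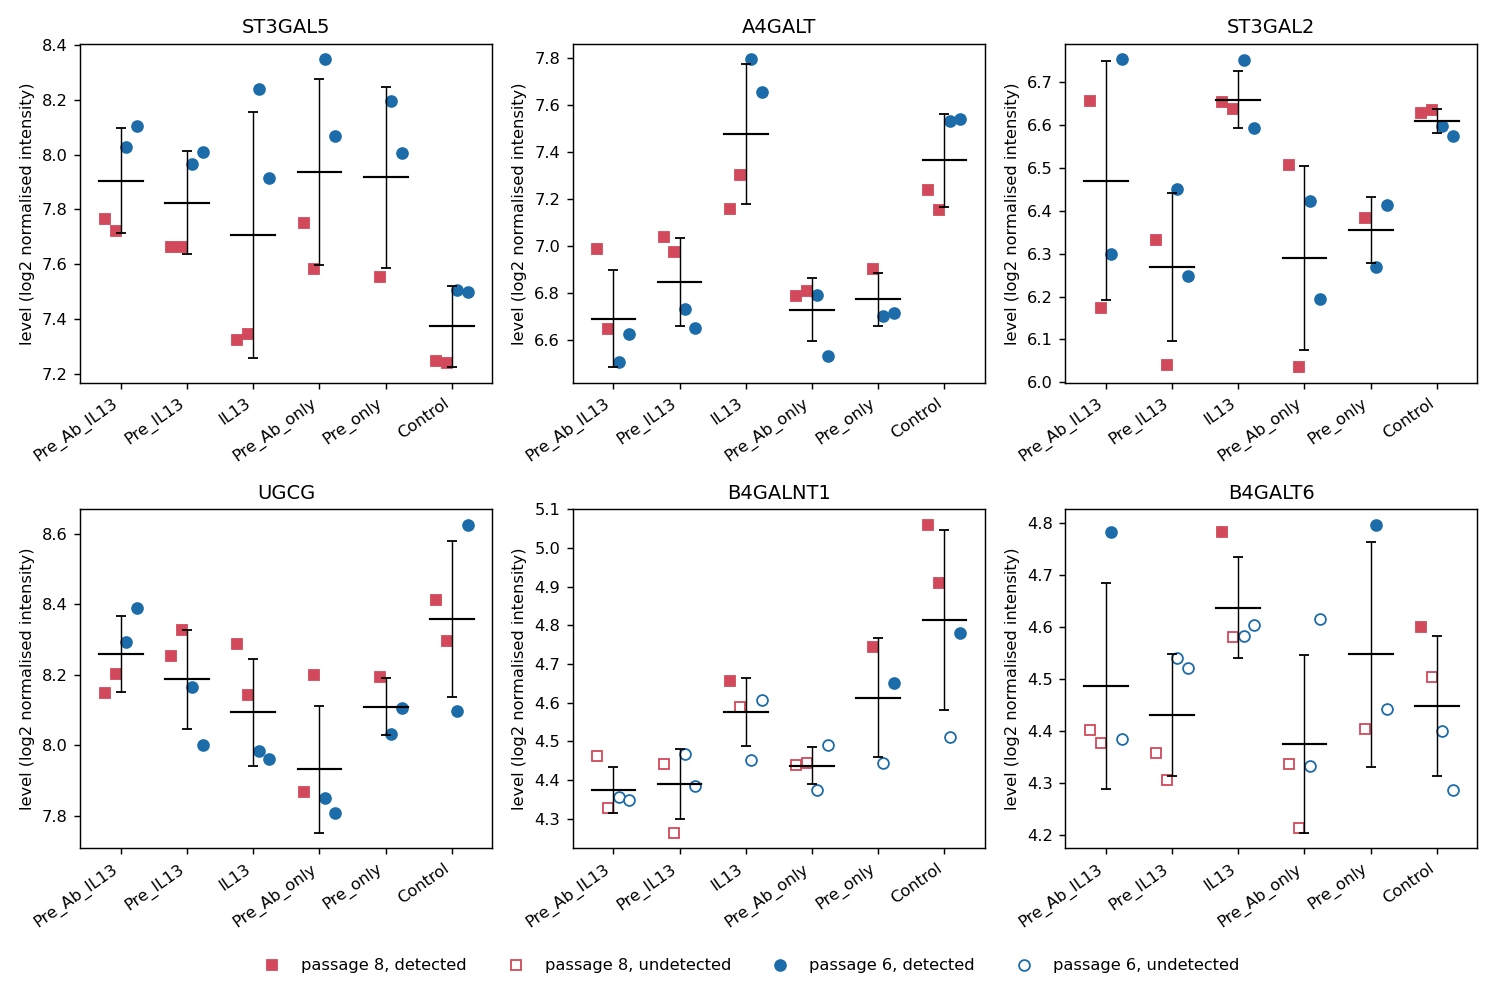
Level (log2 normalised intensity, vertical axis, a different range in each panel) of the other 6 members on each array by group. Squares are passage 8, circles passage 6, open symbols undetected arrays, and bars the mean and SD; A4GALT averaged 6.77 in Pre_only against 7.37 in Control, and ST3GAL5 averaged 7.92 in Pre_only against 7.37 in Control.

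UGCG, which commits ceramide to the whole pathway, was detected on all 23 arrays and passed in no comparison. Its group means were 8.26 ± 0.11 in Pre_Ab_IL13, 8.19 ± 0.14 in Pre_IL13, 8.09 ± 0.15 in IL13, 7.93 ± 0.18 in Pre_Ab_only, 8.11 ± 0.081 in Pre_only and 8.36 ± 0.22 in Control (SD). Its largest change in a comparison of group against group was 0.33 in Pre_Ab_IL13 against Pre_Ab_only (95% interval 0.10 to 0.55, limma adjusted p = 0.155). Differences between IL-13 responses are given below. B4GALNT1 was detected on 6 arrays, 3 of them in Control, with means of 4.61 ± 0.15 in Pre_only and 4.81 ± 0.23 in Control. B4GALT6 was detected on 4 arrays, in 4 different groups, with means between 4.37 and 4.64. Both genes sat at the edge of detection, where a fall could hardly be seen.

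**Figure D4:**
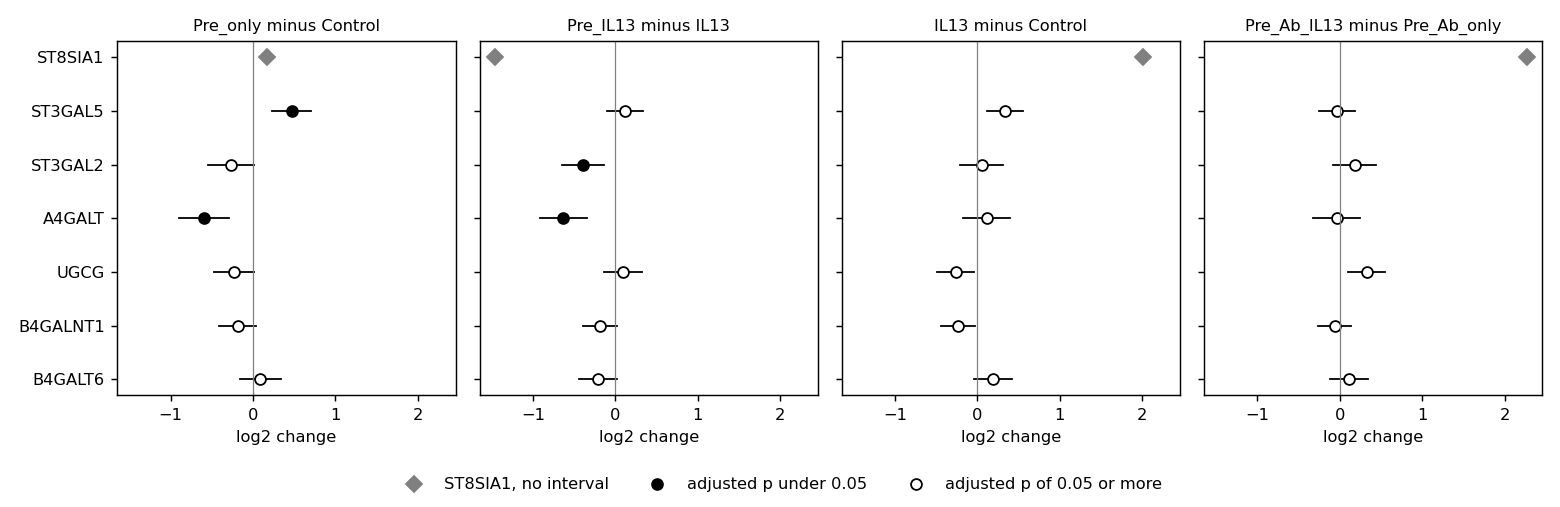
Log2 change (horizontal axis) of the 7 members in 4 comparisons. Circles carry the 95% interval of the model and are filled where the adjusted p was under 0.05; ST8SIA1 is a diamond without interval because its pattern selected it, at 2.01 for IL13 minus Control and 2.27 for Pre_Ab_IL13 minus Pre_Ab_only.

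The antibody comparisons held no call among the other members. In Pre_Ab_IL13 against Pre_Ab_only 0 of 6 passed (1 with an unadjusted p under 0.05, UGCG), beside 291 of all genes (2.24%, and 1400 at an unadjusted p under 0.05). In Pre_Ab_IL13 against Pre_IL13 0 of 6 passed (0 at an unadjusted p under 0.05), beside 120 genes (0.924%, and 1053 at an unadjusted p under 0.05). Without IL-13, in Pre_Ab_only against Pre_only, 0 of 7 members and 0 of all genes passed (0%), with 659 of all genes at an unadjusted p under 0.05. IL-13 in pretreated cells, Pre_IL13 against Pre_only, moved 0 of 6 members (1 at an unadjusted p under 0.05, B4GALNT1) and 4 of all genes (0.0308%, and 833 at an unadjusted p under 0.05). These tests were all limma's.

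The tests of the IL-13 response itself gave no call among the other 6 members either. For the effect of pretreatment on the response, 39 of all genes passed (0.3%) and 1035 had an unadjusted p under 0.05. Of the 6 members 1 had an unadjusted p under 0.05: ST3GAL5 at -0.35 (95% interval -0.67 to -0.03, limma adjusted p = 0.588). For the effect of the antibody on the response of pretreated cells, 30 of all genes passed (0.231%). There 862 of all genes and 0 of the 6 members had an unadjusted p under 0.05. For the response with pretreatment and antibody against the response without either, 9 of all genes passed (0.0693%). In that test 759 of all 12994 genes and 2 of the 6 members had an unadjusted p under 0.05. There UGCG differed by 0.59 (95% interval 0.27 to 0.91, limma adjusted p = 0.252) and ST3GAL5 by -0.36 (95% interval -0.67 to -0.05, limma adjusted p = 0.767). None of the 54 other pathway genes passed in these 3 tests or in the comparisons of IL-13 or antibody among pretreated cells.

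By list, the counts below stand against backgrounds of 24.8% of all genes in Pre_only against Control and 27.7% in Pre_IL13 against IL13. Among the ceramide-forming genes, 5 of 12 tested passed in Pre_only against Control. SPTSSA, a small subunit of serine palmitoyltransferase, rose by 0.75 ± 0.14, and the ceramide synthases CERS6 and CERS5 rose by 0.58 and 0.40. SPTLC2, a large subunit of serine palmitoyltransferase, fell by 0.65 ± 0.11, also in Pre_IL13 against IL13, where it fell by 0.58. In Pre_IL13 against IL13, where 5 of the 12 passed too, CERS6 rose by 0.44 and CERS2 by 0.39, and CERT1, which carries ceramide to the Golgi, fell by 0.49. With median scaling CERS2, CERS5 and CERS6 lost their calls in Pre_only against Control, and CERT1 lost its call in Pre_IL13 against IL13. None of the 3 tested genes that add the first sugars, UGCG and B4GALT6 among them, passed in either comparison.

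In the ganglioside list, 4 of 11 tested genes passed with pretreatment. ST3GAL1, which sialylates galactose on gangliosides and on O-glycans of proteins, rose by 0.87 ± 0.12, and B3GALT4, which makes the GM1 core, rose by 0.69. ST6GALNAC6, a further sialyltransferase of gangliosides, fell by 0.47. In Pre_IL13 against IL13, where 5 of the 11 passed with ST8SIA1 counted, ST3GAL1 rose by 0.51, ST6GALNAC6 fell by 0.48 and ST3GAL3 fell by 0.43. In the lacto and neolacto list 3 of 7 passed with pretreatment: B4GALT4 rose by 0.60, B4GALT1 rose by 0.56 and B4GALT2 fell by 0.50, all galactosyltransferases that also act on proteins. Only B4GALT4 of these passed in Pre_IL13 against IL13, at 0.49. Median scaling ended the calls of B4GALT1, B4GALT2 and B4GALT4 in Pre_only against Control, and those of ST3GAL3 and ST6GALNAC6 in Pre_IL13 against IL13.

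In the breakdown list 4 of 11 tested genes rose with pretreatment, 0 fell and 7 did not pass. Those that rose were GLB1, the lysosomal β-galactosidase, at 0.73 ± 0.092, NEU1, a lysosomal sialidase, at 0.55, GALC, a galactosylceramidase, at 0.50, and GLA, the α-galactosidase that degrades Gb3, at 0.45. With median scaling GLB1 alone of these kept its call. In Pre_IL13 against IL13 4 of 11 rose and 0 fell, with GLB1 at 0.45, HEXA at 0.42, GALC at 0.40 and GLA at 0.31, and all 4 kept their calls with median scaling. Over all genes, that scaling gave 2398 rises and 556 falls in this comparison. The list's median change was 0.13 in Pre_only against Control and 0.26 in Pre_IL13 against IL13, beside all-gene medians of -0.01 and 0.00142. Among sialic acid and sugar-nucleotide genes, NANS, the sialic acid synthase, fell by 0.84 ± 0.12 and UGP2, which makes UDP-glucose, rose by 0.45 with pretreatment. With IL-13 present in both groups, NANS fell by 0.57, UGDH fell by 0.43 and UGP2 rose by 0.31. Of the transport genes, ABCB1, a drug and lipid transporter, fell by 0.51 and GLTP, a glycolipid transfer protein, fell by 0.28, while TM9SF2, which places A4GALT and other enzymes in the Golgi, rose by 0.39. In Pre_IL13 against IL13, TM9SF2 rose by 0.47 and ABCB1 fell by 0.37. Median scaling ended the calls of UGP2, GLTP and TM9SF2 in Pre_only against Control, and those of NANS, UGDH and ABCB1 in Pre_IL13 against IL13.

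**Figure D5:**
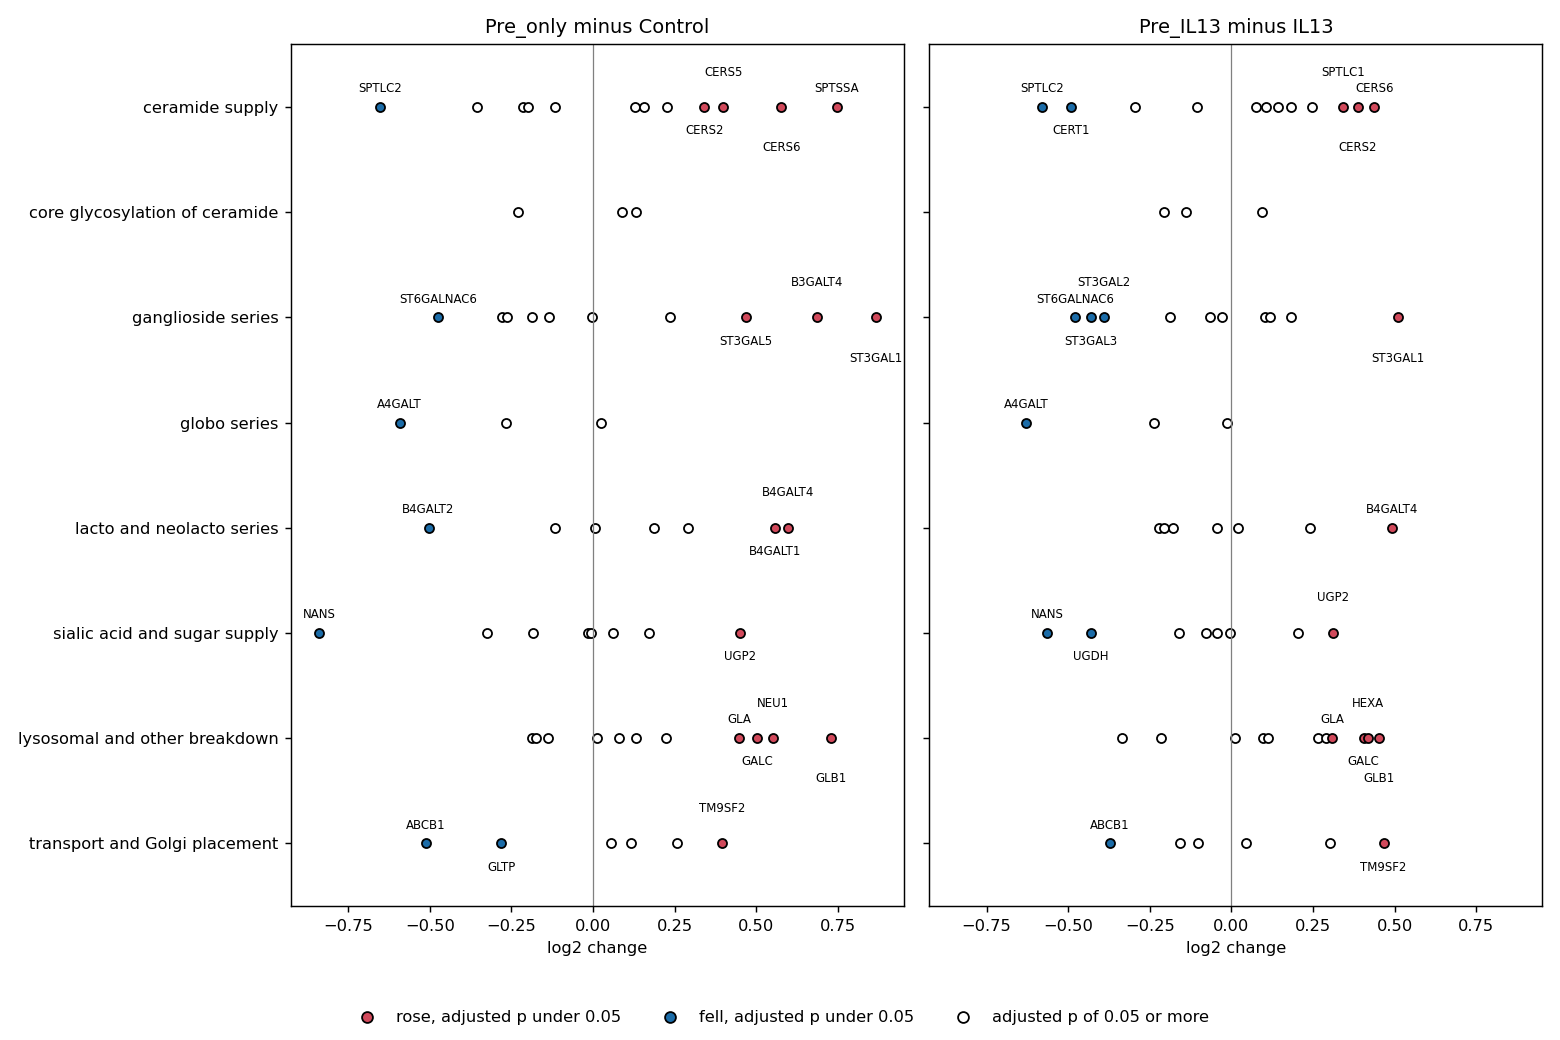
Log2 change (horizontal axis) of the tested pathway genes, by list, for Pre_only minus Control on the left and Pre_IL13 minus IL13 on the right; ST8SIA1 is left out. Filled symbols had an adjusted p under 0.05 and carry their names; ST3GAL1 stood highest in both panels, at 0.87 and 0.51, and the 4 called breakdown genes lay to the right of 0 in each.

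These pathway counts shifted with scaling. In Pre_only against Control 15 pathway genes rose and 7 fell with quantile normalisation, members included, but 4 rose and 5 fell with median scaling, and 9 of the 22 kept their call and direction. In Pre_IL13 against IL13 the split was 11 to 10 with quantiles and 16 to 2 with median scaling, and 13 of 21 kept theirs. ST8SIA1, which carries no test in that comparison, is counted in the 21, in the 13 and in both sets of falls. Over all genes the rises and falls in Pre_only against Control were 1559 and 1664 with quantiles, and 742 and 1202 with median scaling. In Pre_IL13 against IL13 they were 1815 and 1789 with quantiles, and 2398 and 556 with median scaling. Called pathway genes with the opposite sign under median scaling numbered 0 in both comparisons. Markers of 2 other cell types moved with pretreatment, and those of endothelium overlapped between Pre_only and Control: the mean level of the leukocyte list's 1 tested gene, CD14, ranged from 8.94 to 9.21 in Pre_only arrays and from 7.80 to 7.98 in Control arrays. That of the 2 smooth muscle markers, MYH11 and CNN1, ranged from 7.88 to 8.21 in Pre_only and from 9.35 to 10.8 in Control, and that of the 2 endothelial markers, VWF and TEK, from 6.12 to 6.30 in Pre_only and from 6.16 to 6.33 in Control. CD14 ranged from 8.64 to 9.36 in Pre_IL13 and from 7.15 to 7.59 in IL13, and the smooth muscle markers from 7.62 to 8.71 in Pre_IL13 and from 9.32 to 10.8 in IL13. The mean level of the 8 fibroblast markers moved too, from 11.94 to 12.21 over Pre_only arrays and from 11.54 to 11.87 over Control arrays. It overlapped between Pre_IL13 (11.86 to 12.17) and IL13 (11.57 to 11.99). The part of all these markers in the pathway changes was not tested.

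ST3GAL5 changed by -0.45 ± 0.064 in passage 8 against passage 6 across groups (SE, limma adjusted p = 5.82e-06). Over all genes 3820 passed (29.4%), 2152 of them higher in passage 8 and 1668 lower. Of the 61 pathway genes 18 passed, 9 in each direction. With median scaling, which moved the all-gene median to 0.10, 11 pathway genes were higher in passage 8 and 1 lower, ST3GAL5, which kept its call. With that scaling 2645 of all genes were higher and 565 lower. UGCG, A4GALT, ST3GAL2, B4GALNT1 and B4GALT6 did not pass.

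Whether a comparison depended on passage was tested for each of the 6 group comparisons, and 0 of 61 pathway genes passed in any (limma). Over all genes the share that passed was 0.0231% for IL13 against Control, 1.44% for Pre_only against Control, 0.169% for Pre_IL13 against Pre_only, 0.077% for Pre_Ab_IL13 against Pre_Ab_only, 0% for Pre_Ab_IL13 against Pre_IL13 and 0% for Pre_Ab_only against Pre_only. At an unadjusted p under 0.05 the pathway genes numbered 2, 5, 6, 2, 1 and 5 of 61 in that order. All genes at that threshold numbered 1026, 1310, 793, 527, 656 and 765 of 12994. Without the P6-B array of IL13, 3 pathway genes passed for IL13 against Control: GOLPH3, TM9SF2 and LAPTM4A.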

How the data were processed

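From each of 23 samples 300 ng of total RNA was labelled with biotin, per the labels. The deposited intensity of 47323 probes came from GenomeStudio 2011.1, per the submitters' processing notes, each with a deposited detection p-value, and no normalisation was stated. The authors' deposited log2 values (31390 probes) were an alternative only. Groups came from sample titles. Intensities were corrected and quantile normalised with neqc (limma 3.58.1, R 4.3.3, offset 16, negative controls inferred from detection p). Probes annotated to 1 symbol (21332, against 7 with several and 10051 with none) and detected at p under 0.05 on 3 or more arrays were kept, with 1 probe per gene, that of highest mean. Symbols were updated through Entrez gene IDs. The model had terms for group and passage (16 residual degrees of freedom), a trend in eBayes, and Benjamini-Hochberg adjustment over 12994 genes. The fit was tested on simulated data. Members, lists and tests were chosen with earlier results of these data known. Named genes are all members, up to 4 called genes per list and comparison, the 5 genes most correlated with ST8SIA1, and CCL26, SOCS1 and IL13RA2 as a check of the labels. Alternatives changed background correction, scaling, source of values, filter, probe choice, passage term, replicate unit, blocks, weights and arrays. The number of arrays limits the precision.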

Additional observations from a re-analysis of the deposited data

Results flagged for a closer look

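In 4 of the 35 sets of 4 arrays (7 members in 5 groups), 1 array lay far from the other 3, where chance gives about 1 in 20. UGCG in Pre_Ab_only read 8.20 on P8-B and 7.81 to 7.87 on the others. A4GALT in Pre_Ab_only read 6.53 on P6-B and 6.79 to 6.81 on the others. B4GALT6 read 4.78 on P8-A of IL13, beside 4.58 to 4.60, and 4.78 on P6-A of Pre_Ab_IL13, beside 4.38 to 4.40; both are the only detected arrays of their groups.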

How the results depend on the processing

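No called value of a member changed sign under any alternative run. The signs of the other called pathway genes were compared only under median scaling, where none changed. The count of called pathway genes in Pre_only against Control, 22, became 9 with median scaling and 14 without a passage term. It was also lower in passage 8 alone. Over all genes the called share fell too with median scaling, from 24.8% to 15.0%. Shares of all genes in the other settings are not given here, so no drop in these counts can be read as particular to the pathway. In Pre_Ab_IL13 against Pre_Ab_only the 1 gene counted was ST8SIA1, which carries no test there. With it, the count became 2 with the mean of all probes (SPTLC2) and 5 with array weights. The genes added by array weights were SPTLC2, CERS5, SLC35A2 and UGCG, the last at 0.33 (limma adjusted p = 0.0438). In passage 8 alone CERS5 differed by 0.50. In Pre_IL13 against IL13, 21 became 13 in passage 8 alone. For the effect of pretreatment on the IL-13 response, the 1 gene counted was again ST8SIA1, which carries no test. The passage count of 18 became 11 with A and B averaged. The cause was not tested. Leaving out 1 array at a time added CERS5 (without P6-A of IL13) or SLC35A2 (without P6-B of IL13) in Pre_Ab_IL13 against Pre_Ab_only. For passage dependence it gave 0 to 3 called genes. The replicate numbers did not pair the arrays, since A minus B differences correlated between -0.26 and 0.34 across groups. A replicate block changed no call of a member and left the pathway counts at 22 and 21 in the 2 pretreatment comparisons. Outside median scaling, ST3GAL5 in Pre_only against Control lost its call without a passage term (limma adjusted p = 0.052) and in passage 8 alone (0.192), A4GALT in passage 8 alone in both comparisons (0.304 and 0.291), and ST3GAL2 in either passage alone (0.0685 in passage 8 and 0.233 in passage 6). With A and B averaged, all 4 of these calls held, at limma adjusted p between 0.0283 and 0.0481. The ST8SIA1 differences shrank without background correction, with the authors' values, with the mean of both probes and with the dimmer probe (the last chosen after seeing the data). Over all alternatives, they spanned 0.74 to 2.09 in IL13 against Control, 0.92 to 2.63 in Pre_Ab_IL13 against Pre_Ab_only, 0.77 to 2.02 in Pre_Ab_IL13 against Pre_IL13, -1.67 to -0.57 in Pre_IL13 against IL13 and 0.01 to 0.77 in Pre_IL13 against Pre_only. The effect of pretreatment on the response spanned -1.86 to -0.64, and that of the antibody 0.80 to 2.09. In passage 8 alone Pre_only has 1 array, assumed to vary like the other groups. Probes near background, as for B4GALNT1, B4GALT6 and ST8SIA1 without IL-13, limit what a fall can show. All alternatives ran, but without the P8-B array of Pre_only the passage dependence could not be fitted.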
